A study of Mus musculus with 16 samples.

Results

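The oxidative phosphorylation subunits were taken by name from a mouse liver array study of the glucocorticoid receptor (GR, encoded by Nr3c1). Probes that are not controls and whose gene name starts with Nduf and a subunit letter and number, with Cox4 to Cox8, with Uqcr or with Atp5 gave 76 genes of the 27962 gene names on the array. Each gene was read through 1 probe, the one with the highest mean log2 signal over the 16 arrays. They comprise 35 genes named for complex I, 7 for complex III, 18 for complex IV and 16 for ATP synthase. The other subunits of the 4 enzymes, including those that mitochondrial DNA encodes, were not analysed here.

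The mice were C57BL/6 males aged 3 months, and their liver total RNA was labelled with Cy3 and hybridised to 16 Agilent whole mouse genome arrays, 1 sample per array. The 4 groups of 4 arrays were wild type with no treatment, wild type given dexamethasone, GR liver knockout with no treatment and GR liver knockout given dexamethasone, a synthetic ligand of the receptor. The arrays called untreated here are so named by their sources, although the protocol mentions a vehicle and the knockout titles carry PBS. The sources used here give no dose, route or duration and name neither the Cre driver nor the deleted part of Nr3c1. The labels number the replicates without stating outright that each is a separate mouse, so the p-values measure the spread between these samples.

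Oxidative phosphorylation makes most of a hepatocyte's ATP. Complex I takes electrons from NADH, complex III passes them from ubiquinol to cytochrome c, complex IV hands them to oxygen, and ATP synthase uses the proton gradient that results. Liver gluconeogenesis and ureagenesis, which glucocorticoids are known to raise, draw on this ATP. Most nuclear genes for subunits are expressed in every tissue, while a few complex IV subunits also have isoforms restricted to muscle, lung or testis.

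Of the 76 genes, 73 were well above background on all 16 arrays, and 75 were tested, having passed a filter on dim probes that asks for 3 arrays well above background in some group of 4. Cox8c, a testis isoform, was above background on 0 of 16 arrays and has no value here. All 76 names matched a RefSeq gene (GRCm38.p6), 4 of them under a newer symbol. Atp5f1 is now Atp5pb, Uqcr is Uqcr11, Atp5s is Dmac2l and Cox4nb is Emc8. Cox4nb encodes a subunit of the endoplasmic reticulum membrane protein complex and is no subunit of complex IV. Its name comes from its place beside Cox4i1: on the mm7 build of the array, the Cox4nb probe lies at chr8:119292980-119293039 on the minus strand and the Cox4i1 probe at chr8:119308998-119309057 on the plus strand. Atp5s and Cox7a2l, which acts in joining complexes into supercomplexes, are also not enzyme subunits in the strict sense. The text therefore speaks of 67 general subunits, 6 tissue-restricted isoforms (Cox4i2, Cox6a2, Cox6b2, Cox7a1, Cox8b and Cox8c) and these 3 other genes, a division made after the values had been seen. The isoforms are classed by the tissues they are known from, not by these arrays. Cox6a2, Cox6b2 and Cox7a1 were well above background on all 16 arrays here.

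All levels are log2 signals relative to the array's 75th percentile, so that 0 is that percentile, and all differences are between means of such levels. A gene is said to be called where its limma adjusted p is under 0.05 after Benjamini-Hochberg adjustment over all 18611 genes tested. The 75th percentile itself lay between 523.1 and 692 intensity units on 14 arrays, at 401.3 on untreated wild-type replicate 4 and at 308.7 on untreated knockout replicate 1. The Nr3c1 probe, between 1.93 and 2.52 on the wild-type arrays and between -0.10 and 0.56 on the knockout arrays, was lower in knockout by limma, both untreated (log2 difference -1.99, adjusted p = 1.65e-05) and under dexamethasone (-1.96, adjusted p = 6.43e-06). Whether this probe lies in the deleted part is not known. The groups were hybridised on 1 slide each, so that a slide effect cannot be told apart from any difference given here. Hepatocyte markers identified the tissue, with 7 of 7 on the array above background on every array. In bulk liver, fewer cells of a type and less RNA per cell cannot be told apart. Of the 7 hepatocyte markers, 4 were called lower in knockout under dexamethasone (2 of 7 untreated). Limma called 8.24% of all genes lower under dexamethasone and 0.779% untreated. The 7 differences ran from -1.28 to 0.12 under dexamethasone and from -0.89 to 0.05 untreated. Among markers of other cells, 2 of 4 for B cells and 1 of 4 tested for endothelium (Kdr) were called lower under dexamethasone in both genotypes. Limma called 6.82% of all genes lower in wild type and 2.41% in knockout. The endothelial differences ran from -1.13 to 0.24 in wild type and from -1.03 to 0.39 in knockout. Of 5 T and NK cell markers, Cd3g was called lower in wild type (differences -0.91 to 0.18) and Cd3e in knockout (-0.92 to -0.01). Sox9 was called higher in wild type among 3 cholangiocyte markers (0.28 to 1.36), where limma called 5.19% of all genes higher. Epor was called lower in knockout among 3 erythroid ones (-0.99 to -0.09). Between genotypes under dexamethasone, knockout was called higher for Cd79a (B cell) and Alas2 (erythroid) and lower for Cd3e and Krt7 (cholangiocyte). Each was the only call in its list, where limma called 14.1% of all genes higher and 8.24% lower. Untreated, 0 of 7 Kupffer and macrophage markers were called between genotypes, with differences from 0.28 to 0.64. The part of cell composition in the values was not tested.

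The promoter sequences that follow let the isoforms be set beside the general subunits. They are the 250 bases before the start in RefSeq's GRCm38.p6 table, for Cox6b2 and Cox7a1, which were called in some comparison, for Cox6b1 and Cox7a2, the general forms of the same subunits, and for Cox6a1 and Ndufb10 as general subunits with a nuclear respiratory factor 1 (NRF1) core. Capitals mark matches, on either strand, to the cores searched: GCGCNTGCG for NRF1, CCGGAAG for ETS factors, AAGATGGC for YY1, AAGGTCA for estrogen-related receptors and ACANNNTGT for the glucocorticoid response element.
Cox6b2, chr7:4753095-4753344, minus strand: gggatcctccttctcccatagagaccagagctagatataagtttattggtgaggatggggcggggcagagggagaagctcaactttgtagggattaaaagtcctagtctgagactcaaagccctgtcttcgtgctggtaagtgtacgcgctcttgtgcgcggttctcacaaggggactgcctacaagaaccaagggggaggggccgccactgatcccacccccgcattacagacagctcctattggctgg
Cox6b1, chr7:30626115-30626364, minus strand: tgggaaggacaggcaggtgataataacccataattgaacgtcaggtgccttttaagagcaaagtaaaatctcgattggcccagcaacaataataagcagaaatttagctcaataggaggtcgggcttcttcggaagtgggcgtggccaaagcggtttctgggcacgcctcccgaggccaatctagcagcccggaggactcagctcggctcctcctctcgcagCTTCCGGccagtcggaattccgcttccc
Cox7a1, chr7:30183921-30184170, plus strand: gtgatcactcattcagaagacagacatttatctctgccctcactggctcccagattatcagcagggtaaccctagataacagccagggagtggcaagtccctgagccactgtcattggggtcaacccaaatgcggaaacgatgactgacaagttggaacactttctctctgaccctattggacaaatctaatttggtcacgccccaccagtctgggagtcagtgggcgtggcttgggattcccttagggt
Cox7a2, chr9:79759854-79760103, minus strand: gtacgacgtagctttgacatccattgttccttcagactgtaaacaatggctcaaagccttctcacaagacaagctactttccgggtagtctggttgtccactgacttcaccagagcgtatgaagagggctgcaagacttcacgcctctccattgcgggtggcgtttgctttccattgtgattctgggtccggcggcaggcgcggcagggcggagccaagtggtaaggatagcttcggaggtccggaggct
Cox6a1, chr5:115348959-115349208, minus strand: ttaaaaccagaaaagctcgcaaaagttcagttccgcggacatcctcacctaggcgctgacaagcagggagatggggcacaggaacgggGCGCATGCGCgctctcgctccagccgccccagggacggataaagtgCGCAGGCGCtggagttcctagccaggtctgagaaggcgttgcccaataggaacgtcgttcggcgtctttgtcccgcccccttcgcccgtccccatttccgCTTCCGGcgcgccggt
Ndufb10, chr17:24724424-24724673, minus strand: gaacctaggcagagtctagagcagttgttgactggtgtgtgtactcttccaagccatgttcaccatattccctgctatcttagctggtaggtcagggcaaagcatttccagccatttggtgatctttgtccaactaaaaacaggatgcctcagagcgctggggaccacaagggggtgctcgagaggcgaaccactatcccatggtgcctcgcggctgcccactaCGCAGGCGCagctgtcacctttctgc
Cox6a1 holds an ETS core at -16 and NRF1 cores at -162, -161 and -116, the first pair overlapping, counted in bases from the start, Ndufb10 an NRF1 core at -26 and Cox6b1 an ETS core at -28. None of these letters stands in the stretches shown for Cox6b2, Cox7a1 and Cox7a2. Since Cox6a1 and Ndufb10 were chosen for holding an NRF1 core, their contrast with the isoforms was set by that choice. The promoters of Cox6a2 and Cox4nb, also called in some comparison, are not shown.

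Cores were counted in 65 promoters of 60 of the 76 members (250 bases before to 50 after the start, chromosome 18 left out). The shares that follow do not cover the remaining members. The NRF1 core stood in 32.3% of the 65, against 6.31% of all 32851 promoters of that length. The ETS core stood in 21.5% against 8.86%, the YY1 core in 15.4% against 2.75% and the estrogen-related receptor core in 10.8% against 4.72%. The glucocorticoid response element core stood in 0 of the 65, against 6.85% of all promoters. These are counts of letters in a window and no evidence of binding.

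Dexamethasone in wild type left the general subunits of all 4 enzymes between -0.31 (Ndufb10) and 0.28 (Ndufb5) on the log2 scale, while Cox4nb, the gene outside the enzymes, rose 2.58-fold and Cox6b2, a testis-type isoform of complex IV subunit 6b, rose 1.68-fold. Of the 75 members, these 2 were called higher and 0 lower, where limma called 12% of all genes, 5.19% higher and 6.82% lower. The unadjusted limma p was under 0.05 for 3 members that were higher and 3 that were lower (11.6% and 14.8% of all genes). The median difference of the members was -0.08, against -0.03 over all genes tested.

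On the 4 untreated wild-type arrays Cox4nb stood at 1.53, 1.59, 1.58 and 2.05, and on the 4 dexamethasone arrays at 3.20, 2.89, 2.94 and 3.19. Every treated array lay above every untreated one. In knockout, Cox4nb stood at 1.33, 1.64, 1.65 and 1.56 untreated and at 1.47, 1.46, 1.59 and 1.63 under dexamethasone, and these groups overlap throughout. The log2 difference was 1.37 in wild type (SE 0.136, limma adjusted p = 0.000106) and -0.004 in knockout (95% interval -0.29 to 0.29). The interaction, which is the dexamethasone difference in knockout minus that in wild type, was -1.37 (SE 0.192, adjusted p = 0.00205). Under dexamethasone, knockout minus wild type was -1.52 (SE 0.136, adjusted p = 2.47e-05).

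The second Cox4nb probe moved the same way by less. In a fit of every probe, its dexamethasone difference in wild type was 0.57 (adjusted p = 0.0449) and its knockout difference under dexamethasone was -0.87 (adjusted p = 0.00285), while its interaction of -0.48 was not called (adjusted p = 0.37). With this probe in place of the brighter one in the fit of 1 probe per gene, the adjusted p in wild type was 0.0509.

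Cox4i1, the ubiquitous form of complex IV subunit 4 and the neighbour of Cox4nb, showed no such difference. Its levels were 8.32, 8.37, 8.33 and 8.76 on untreated and 8.22, 8.10, 8.41 and 8.48 on treated wild-type arrays. In knockout they were 8.82, 8.45, 8.31 and 8.48 untreated and 8.39, 8.34, 8.46 and 8.08 under dexamethasone. All 4 groups overlap, and the 95% intervals of the dexamethasone difference were -0.46 to 0.18 in wild type and -0.51 to 0.12 in knockout.

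**Figure D1:**
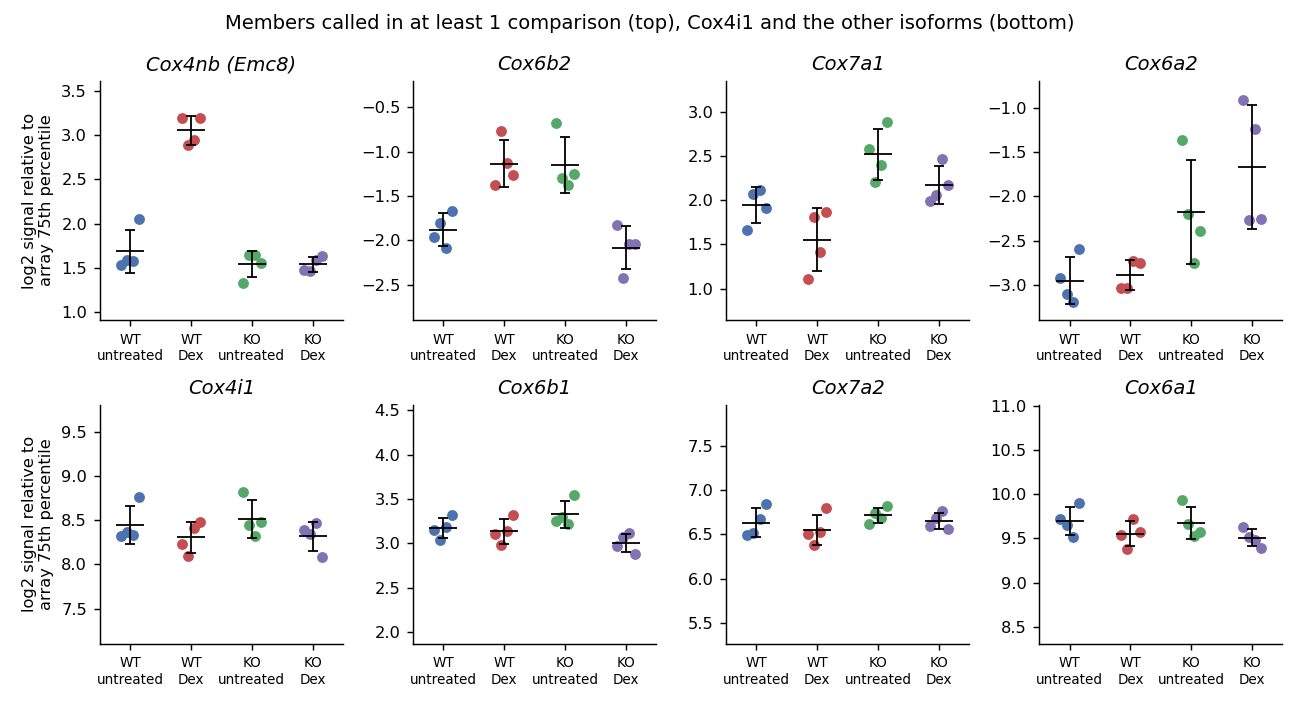
Log2 signal relative to the array's 75th percentile (y axis, every panel spanning the same range of log2 units) for the 4 members called in at least 1 comparison (top) and for Cox4i1, Cox6b1, Cox7a2 and Cox6a1 (bottom). Points are arrays, black bars are the group mean and SD (n = 4), WT is wild type, KO is GR knockout and Dex is dexamethasone; Cox4nb is high only in the 4 wild-type dexamethasone arrays, between 2.89 and 3.20, and Cox6b2 is high in wild-type dexamethasone and untreated knockout.

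Cox6b2 moved in opposite directions in the 2 genotypes. Cytochrome c oxidase subunit 6b sits on the outer face of the enzyme, and Cox6b2 is its testis form. It stood at -1.96, -1.81, -2.09 and -1.67 on untreated and at -1.38, -0.77, -1.13 and -1.26 on treated wild-type arrays, with no overlap. In knockout the order was the reverse: -0.68, -1.30, -1.38 and -1.25 untreated and -1.83, -2.42, -2.04 and -2.04 under dexamethasone, again with no overlap.

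The Cox6b2 dexamethasone difference was 0.75 in wild type (SE 0.184, limma adjusted p = 0.0165) and -0.93 in knockout (SE 0.184, adjusted p = 0.0132). The interaction was -1.68 (SE 0.261, adjusted p = 0.00337). The knockout was higher untreated by 0.73 (adjusted p = 0.0484) and differed by -0.95 under dexamethasone (adjusted p = 0.00249). The gene was well above background on all 16 arrays but lies below the 75th percentile on each. Under normexp background correction none of the 5 calls stood (limma adjusted p from 0.0653 to 0.289), and the interaction was -1.08. That setting adds an offset of 50 to each signal, which by itself shrinks log2 differences of dim probes. The parts of the correction and of the offset in this loss cannot be told apart. The knockout dexamethasone call was lost when only the groups compared were fitted (adjusted p = 0.0918). The call in wild type was lost without untreated replicate 3 (adjusted p = 0.0503) or dexamethasone replicate 2 (0.0511), and the untreated genotype call was lost in 12 of the 16 fits without 1 array (0.0525 to 0.115).

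Cox6b1, the form of the subunit found in most tissues, stood at 3.15, 3.04, 3.18 and 3.32 untreated and at 3.10, 2.98, 3.13 and 3.32 under dexamethasone in wild type. In knockout it stood at 3.25, 3.30, 3.21 and 3.55 untreated and at 2.97, 3.07, 3.11 and 2.88 treated. The knockout groups do not overlap, but the difference of -0.32 (SE 0.116) was not called (limma adjusted p = 0.154). The wild-type difference was -0.04, with a 95% interval from -0.29 to 0.21.

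Dexamethasone in knockout gave 0 members called higher and 1 called lower, Cox6b2, where limma called 3.59% of all genes (1.19% higher, 2.41% lower). At an unadjusted p under 0.05 stood 0 higher and 9 lower members (7.48% and 9.23% of all genes). The median of the 75 members was -0.17, against -0.003 over all genes. The lower values ran through all enzymes: the general subunits had a negative difference in 31 of 35 genes for complex I, 7 of 7 for complex III, 9 of 10 for complex IV and 12 of 15 for ATP synthase, together 59 of 67, against 50.4% of all genes tested. None of the 67 was called, and 8 had an unadjusted p under 0.05, all lower.

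The general subunit nearest to the threshold was Cox7c, a small nuclear subunit of complex IV, which was singled out after its values were seen. It stood at 4.40, 4.21, 3.99 and 4.17 on untreated and at 3.69, 3.93, 3.58 and 3.19 on dexamethasone knockout arrays. The treated arrays all lay below the untreated ones, with a difference of -0.59 (SE 0.157, limma adjusted p = 0.0512). In wild type it stood at 3.93, 3.71, 3.72 and 4.07 untreated and 3.71, 3.59, 3.67 and 3.95 treated, which overlap (difference -0.13, adjusted p = 0.654). Its interaction of -0.46 was not called (adjusted p = 0.313). Cox7c was called in knockout under quantile and cyclic loess normalization, among other settings, and without dexamethasone knockout replicate 2.

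Arrays of the same group differed among themselves by as much as the group medians did. The median over the 67 genes, each centred on its own mean, ranged from -0.21 on dexamethasone knockout replicate 4 to 0.24 on untreated knockout replicate 4. Group means of these array medians were 0.05 ± 0.11 (SD, n = 4) in untreated and -0.05 ± 0.13 in treated wild type, 0.11 ± 0.12 in untreated and -0.09 ± 0.09 in treated knockout. The highest array of treated wild type, at 0.10, lay above 3 of the 4 untreated ones. In knockout, treated arrays lay between -0.21 and -0.02, and the lowest untreated array, at -0.05, falls within that range.

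**Figure D2:**
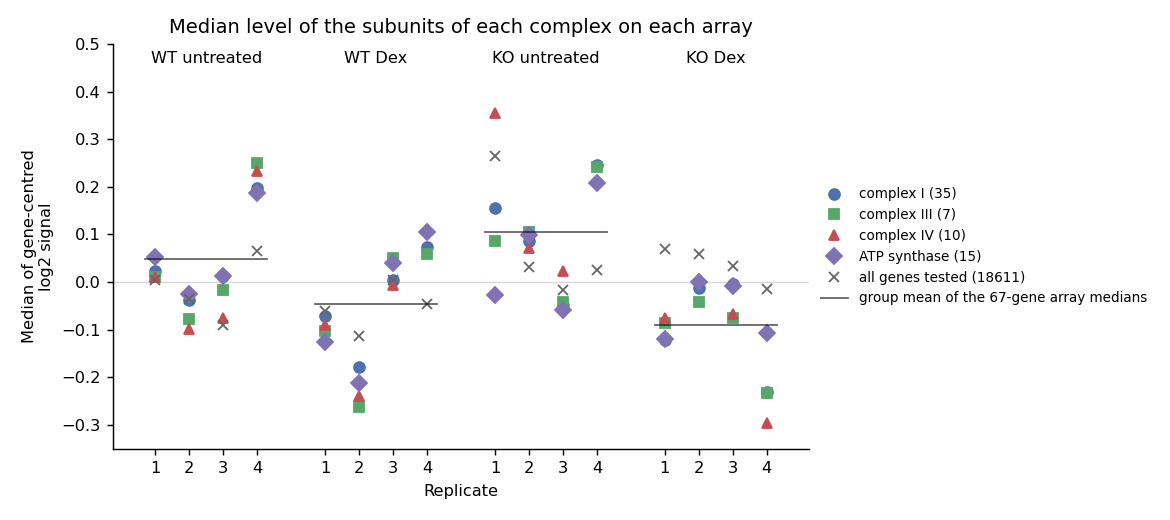
Median log2 signal of the general subunits of each enzyme on each array (y axis, each gene centred on its mean over 16 arrays; x axis, replicates by group), with the median of all 18611 genes as crosses and the group mean over the 67 genes as lines. The medians lie between -0.30 and 0.35, those of the 4 enzymes part most on untreated knockout replicate 1 (0.35 for complex IV, -0.03 for ATP synthase), and the treated and untreated medians over the 67 genes overlap in both genotypes.

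By enzyme, the median difference of the general subunits under dexamethasone in wild type was -0.09 for complex I, -0.08 for complex III, -0.08 for complex IV and -0.11 for ATP synthase. In knockout these medians were -0.16, -0.23, -0.23 and -0.12. Without the 2 arrays of lowest 75th percentile, the median over all 67 was -0.02 in wild type and -0.17 in knockout. The interaction, which is the test of the difference between genotypes, called 0 members higher and 2 lower (Cox4nb and Cox6b2), where limma called 4.54% of all genes, 1.87% higher and 2.67% lower. Of the 67 general subunits it called 0, with 0 also at an unadjusted p under 0.05 (0 higher and 2 lower among all 75 members, against 8.73% and 7.95% of all genes). The median interaction of the members was -0.09, against 0.03 over all genes.

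How large a change the arrays could have missed is given by the intervals. For dexamethasone in wild type, the 95% interval of the difference lay wholly within 2-fold in either direction for 66 of the 67 general subunits and within 1.5-fold for 60. In knockout these counts were 65 and 52, and for the interaction 65 and 41. For knockout against wild type they were 65 and 60 untreated and 66 and 61 under dexamethasone. Ndufb5 was outside 2-fold in each of the 5. Over all genes tested, 65.9%, 70.4%, 52.3%, 69.2% and 60.5% lay within 2-fold, in the same order. A limma p above the threshold does not show that the levels were equal, and the intervals bound the difference gene by gene.

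**Figure D3:**
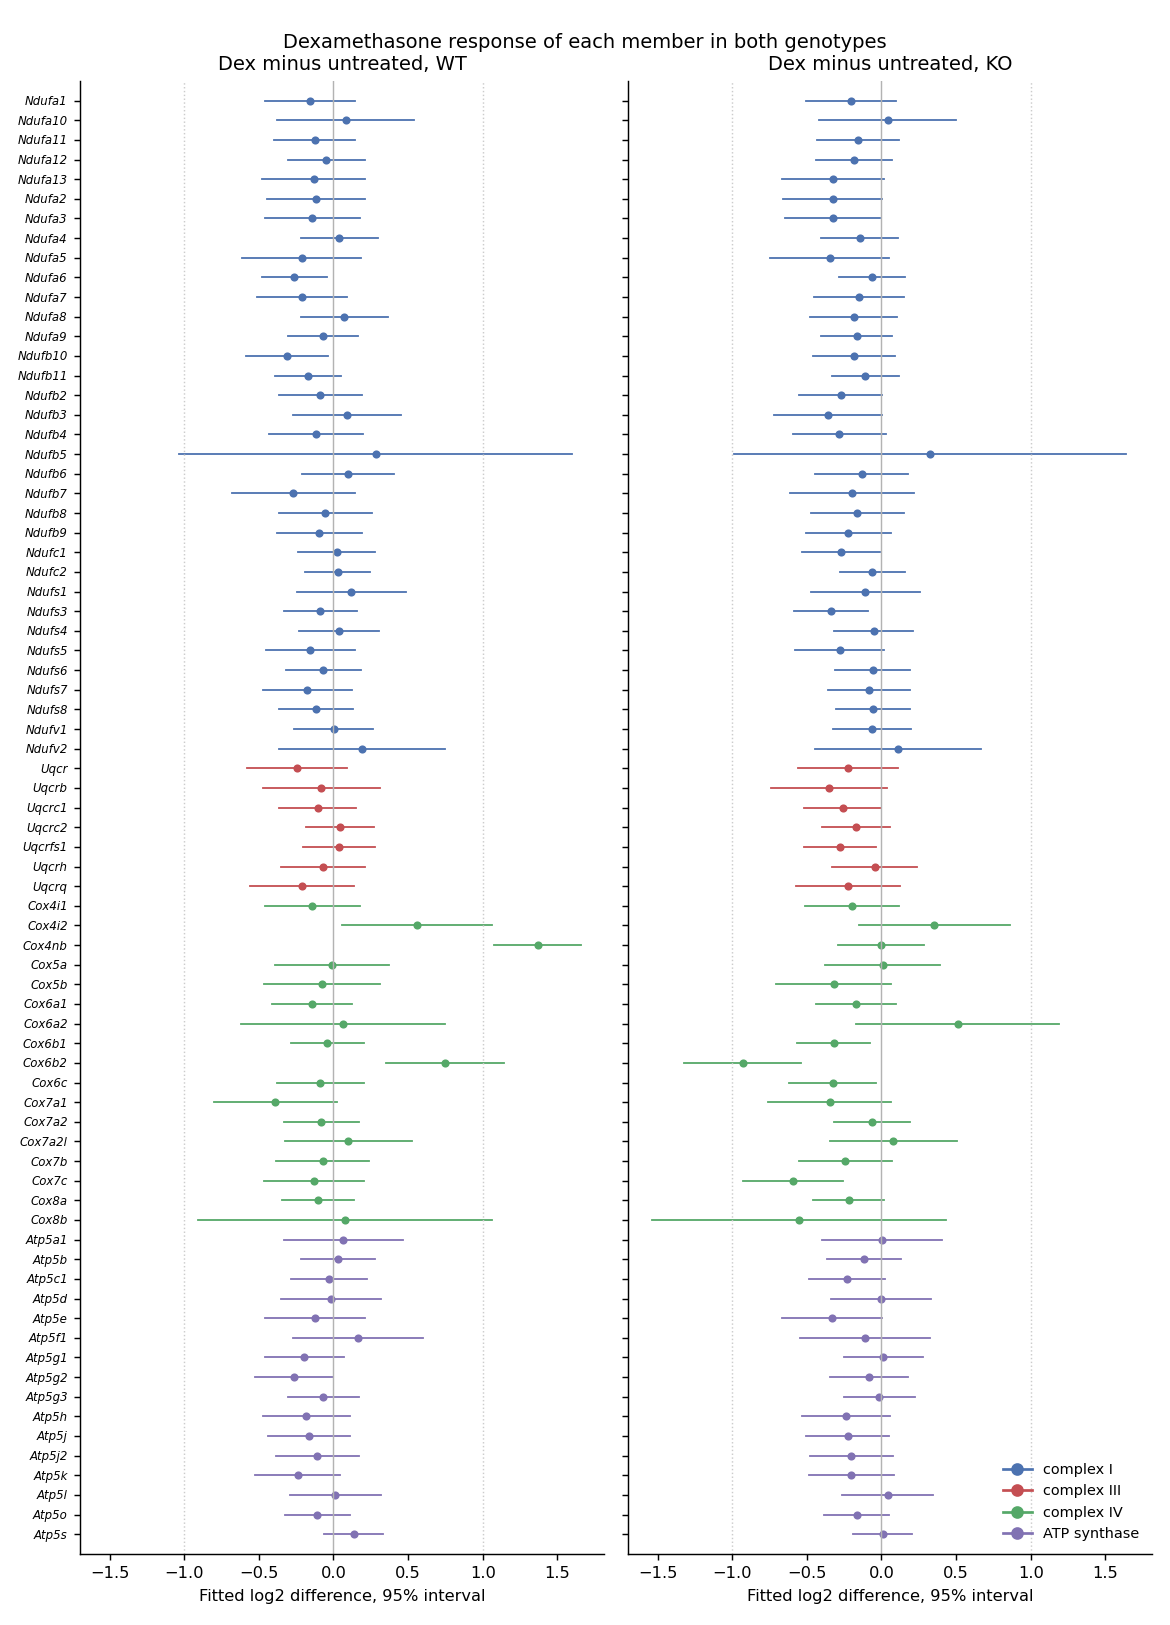
Fitted log2 difference between dexamethasone and untreated for 74 of the 75 tested members (rows, coloured by enzyme) with its 95% interval (x axis), in wild type (left) and knockout (right), with dotted lines at 2-fold. Cox4nb stands apart in wild type at 1.37, Cox6b2 lies at 0.75 on the left and -0.93 on the right, and most other intervals cover 0.

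The spread within groups was lower over the general subunits than over all genes tested, and these sets were not matched for signal. The median within-group SD over the 67 general subunits was 0.164, against 0.316 over all genes tested, and it ran from 0.0967 for Ndufc2 to 0.953 for Ndufb5. Ndufb5, an accessory subunit of complex I, stood at 2.75, 2.61, 2.86 and 1.55 in untreated and 2.68, 2.62, 2.89 and 2.71 in treated wild type. In knockout it stood at -0.59, 2.65, 2.50 and 2.92 untreated and at 1.49, 1.67, 2.64 and 2.98 treated. Untreated knockout replicate 1 lay far below all others, and untreated wild-type replicate 4 and treated knockout replicates 1 and 2 lay between.

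On untreated knockout replicate 1, 11 of the 67 general subunits lay over 0.5 below and 8 over 0.5 above the median of the other 3 arrays of the group, while on each of the other 15 arrays at most 2 lay that far below and at most 4 above. The low ones included Ndufv2, Ndufa10, Atp5f1 and Atp5a1, and the high ones Ndufb7, Ndufa5, Uqcrq and Ndufa13. This array has the lowest 75th percentile, and the part of signal strength in the pattern was not tested. Without it, the median of the general subunits for dexamethasone in knockout was -0.17, and 98.5% of them had a negative difference, against 88.1% with all arrays. Without untreated knockout replicate 4 the median was -0.13 and 76.1% were negative, the lowest share when any 1 array was left out.

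In knockout against wild type without treatment, 41 of the 67 general subunits had a positive difference, with a median of 0.04, against 0.05 over all genes. These figures depended on the scaling: 38.8% of the 67 were negative here, but 14.9% under quantile normalization (median 0.10, against 0.03 over all genes) and 11.9% under cyclic loess (0.13 against 0.03). Without the 2 arrays of lowest 75th percentile 19.4% were negative, with a median of 0.09. None of the 67 was called in any of these settings. Of the 75 members, 1 was called higher (Cox6b2, above) and 0 lower, where limma called 2.87% of all genes, 2.09% higher and 0.779% lower. The unadjusted p was under 0.05 for 5 members, all higher, and for 0 lower ones (13.5% and 5.85% of all genes), and the 5 are the tested tissue-restricted isoforms. The median difference over these 5 was 0.78, and 0.73 with Cox4i2 at its bound, since that gene was not well above background on any untreated wild-type array. Under normexp, whose offset by itself shrinks differences of dim probes, those of Cox4i2 and Cox8b were 0.12 and 0.35. The isoforms were grouped after the values were seen, so this count is a description and is given no test.

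Under dexamethasone, knockout against wild type called 4 members: Cox6a2 and Cox7a1 higher, and Cox4nb and Cox6b2 lower. Limma called 22.3% of all genes in this comparison, 14.1% higher and 8.24% lower. Without adjustment, 3 members were higher and 3 lower at p under 0.05 (22.1% and 12.9% of all genes). The members' median was -0.06 and that of the 67 general subunits -0.06, with 0 of the 67 called, against a median of 0.09 over all genes. The sign of the second median depended on the scaling, at 0.04 with 34.3% negative under quantile normalization and -0.18 with 92.5% negative under normexp, against 73.1% negative here. Calls among the 67 also appeared in other settings: Atp5g2 and Ndufb10 higher under quantile normalization, Ndufa6 with array weights and Ndufb8 with the second brightest probe. The comparisons with dexamethasone in wild type and with untreated wild type share arrays with those above and give no separate support.

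**Figure D4:**
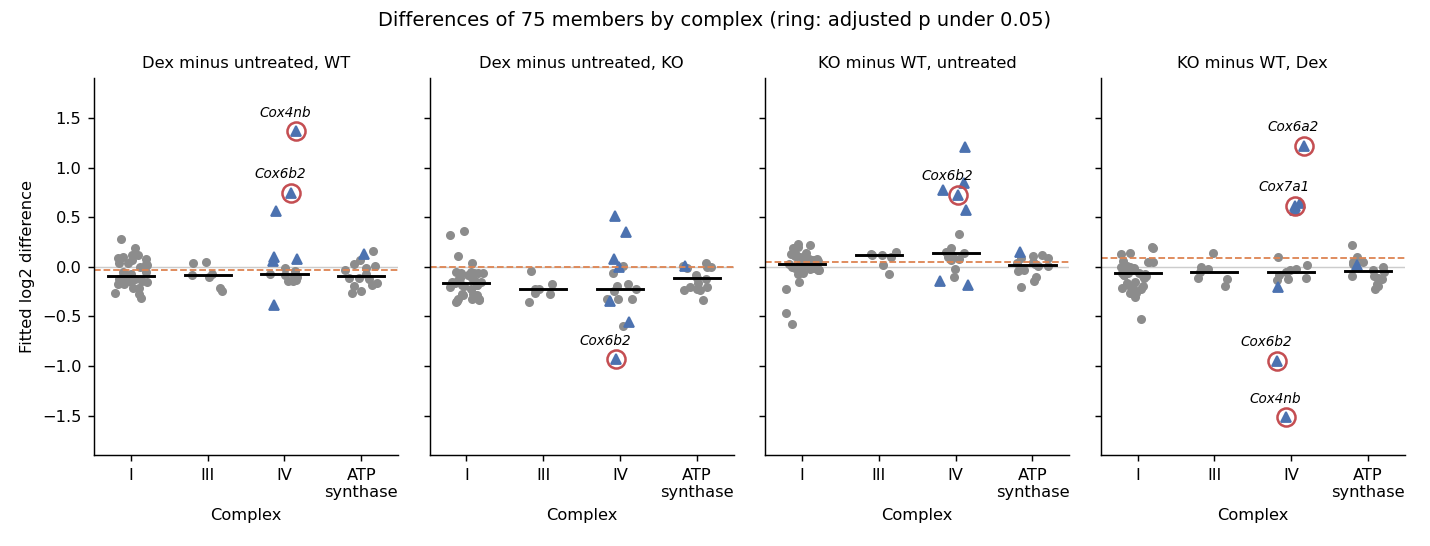
Fitted log2 differences (y axis) of the 75 tested members by enzyme (x axis) in the 4 comparisons of groups. Grey circles are general subunits, blue triangles the isoforms and the 3 other genes, red rings the calls at adjusted p under 0.05, black lines the median per enzyme and dashed lines the median of all 18611 genes. The calls are 2, 1, 1 and 4 from left to right, and none is a grey circle, in a division made after the values had been seen.

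Cox6a2, the heart and skeletal muscle form of complex IV subunit 6a, was low in wild type and higher in knockout. It stood at -2.92, -3.11, -3.19 and -2.59 in untreated and -3.04, -3.03, -2.73 and -2.76 in treated wild type. In knockout it stood at -1.36, -2.20, -2.75 and -2.39 untreated and at -0.91, -2.27, -1.24 and -2.25 treated. All treated knockout arrays lay above all treated wild-type arrays, while the untreated groups overlap. The genotype difference was 1.22 under dexamethasone (SE 0.320, limma adjusted p = 0.0141) and 0.78 untreated (adjusted p = 0.196). The call under dexamethasone was kept in each fit without 1 array and under every other setting tried.

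Cox6a1, the liver form, stood between 9.38 and 9.94 on all 16 arrays. Its group means were 9.70 ± 0.16 (SD, n = 4) and 9.55 ± 0.14 in untreated and treated wild type, and 9.68 ± 0.18 and 9.51 ± 0.10 in untreated and treated knockout. The genotype differences were -0.02 untreated (95% interval -0.29 to 0.25) and -0.05 under dexamethasone (-0.31 to 0.22).

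Cox7a1, the heart and muscle form of subunit 7a, stood at 1.67, 2.07, 2.12 and 1.92 in untreated and 1.11, 1.81, 1.42 and 1.87 in treated wild type. In knockout it stood at 2.58, 2.21, 2.40 and 2.88 untreated and at 1.99, 2.06, 2.47 and 2.17 treated. In each treatment every knockout array lay above every wild-type one. The genotype difference was 0.62 under dexamethasone (SE 0.192, limma adjusted p = 0.0321) and 0.58 untreated (SE 0.192, adjusted p = 0.117). The call was lost in 5 of the 16 fits without 1 array: without treated wild-type replicate 1 (0.107) or 3 (0.0778), or treated knockout replicate 2 (0.0505), 3 (0.1) or 4 (0.057). It was also lost under normexp (0.106) and with no filter on dim probes (0.0582).

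Cox7a2, the liver form of that subunit, lay between 6.38 and 6.85 on all 16 arrays, and its genotype differences were 0.08 untreated (95% interval -0.17 to 0.33) and 0.10 under dexamethasone (-0.16 to 0.35). Cox7a2l, the supercomplex factor of the same family, had group means of 3.45 ± 0.19 and 3.55 ± 0.10 in wild type and 3.27 ± 0.41 and 3.35 ± 0.34 in knockout (SD, n = 4, untreated then treated). No Cox7a2l difference was called.

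Cox4i2, the form of subunit 4 known from lung, was not well above background on any of the 4 untreated wild-type arrays and was on 3 of 4 treated wild-type, 3 of 4 untreated knockout and 4 of 4 treated knockout arrays. Its levels were -5.15, -5.13, -6.14 and -4.87 in untreated and -4.87, -5.16, -4.69 and -4.34 in treated wild type. In knockout they were -4.26, -4.38, -4.76 and -4.51 untreated and -4.11, -4.16, -4.21 and -4.02 treated. In both treatments the knockout arrays all lay above the wild-type ones.

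For the untreated genotype comparison the Cox4i2 signal gives only a rough bound, 1.34-fold higher in knockout. It sets the knockout mean of -4.48 against a bound of -4.90, from the lowest signal flagged above background on each array. An unflagged spot may lie above that signal, and 3 of 4 knockout arrays were flagged, so 1.34-fold is no strict minimum. The measured wild-type mean was -5.32, and the measured difference had a limma adjusted p of 0.0661. That bound depends on the processing: it is 0.42 on the log2 scale, while the fitted Cox4i2 difference was 0.12 under normexp with its offset. Under dexamethasone the difference was 0.64 (SE 0.236, adjusted p = 0.0653). Neither passed the threshold. The untreated one passed with array weights (adjusted p = 0.014) and without untreated wild-type replicate 4 (0.0484). The treated one passed with array weights (0.0193), with only the groups compared (0.024), without both dim arrays (0.0432), and without untreated wild-type replicate 3 (0.0144) or treated wild-type replicate 4 (0.0418).

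Cox8b, the muscle and brown fat form of subunit 8, was dim, above background on 3 of 4 arrays in both wild-type groups and 4 of 4 in both knockout groups, and variable. It stood at -4.29, -4.71, -4.74 and -4.67 in untreated and -4.49, -5.15, -5.03 and -3.43 in treated wild type. In knockout it stood at -2.16, -3.65, -3.73 and -4.06 untreated and at -3.39, -3.59, -3.68 and -5.14 treated. The untreated groups do not overlap, yet the difference of 1.21 (SE 0.461) was not called (limma adjusted p = 0.166), and the treated groups overlap. Cox8a, the liver form, lay between 7.41 and 7.95 on all arrays with no call in any comparison.

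Markers of muscle and brown fat were read beside these isoforms. Of 6 muscle markers on the array (Ckm, Acta1, Myh6, Myl2, Tnnt2 and Mb), myoglobin (Mb) was above background on 0 arrays, Ckm, Myh6 and Myl2 on fewer than 8, and only Tnnt2 on all 16. Their summed linear signal, in units of the array's 75th percentile, ran from 0.256 to 0.383 in untreated and 0.233 to 2.26 in treated wild type, and from 0.252 to 1.29 in untreated and 0.156 to 0.392 in treated knockout. The highest sums were on treated wild-type replicate 4 and untreated knockout replicate 1, which are also the highest Cox8b arrays of their groups. The untreated knockout array is also the highest of its group for Cox6a2. In treated knockout, where the mean of Cox6a2 was highest, the muscle sum reached 0.392 at most, on replicate 1, the highest Cox6a2 array. It was 0.385 on replicate 2, the lowest Cox6a2 array of that group. The 3 brown fat markers on the array summed to between 0.141 and 9.08 in treated knockout and between 0.145 and 1.98 in treated wild type, and Ucp1, which defines brown fat, was above background on 0 arrays. The sum of 9.08 was on treated knockout replicate 1, the highest Cox6a2 array, while replicate 3, the next highest for Cox6a2, had 0.313. Of the 3 muscle markers and 1 brown fat marker tested, limma called 0 in any comparison, with 1 muscle marker at an unadjusted p under 0.05 in the interaction. The part of either tissue in the isoform values was not tested.

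ATP synthase subunit c is encoded by Atp5g1, Atp5g2 and Atp5g3, whose mature protein is the same. Atp5g1 had group means of 6.38 ± 0.12 and 6.19 ± 0.20 in wild type and 6.28 ± 0.18 and 6.29 ± 0.02 in knockout (SD, n = 4, untreated then treated). Atp5g2 had 6.63 ± 0.13 and 6.36 ± 0.19 in wild type and 6.67 ± 0.14 and 6.59 ± 0.09 in knockout. Atp5g3 had 8.52 ± 0.10, 8.45 ± 0.14, 8.50 ± 0.15 and 8.48 ± 0.07 in the same order. None was called in any comparison in the setting used here, and the dexamethasone difference of Atp5g2 in wild type was -0.26 (SE 0.123, limma adjusted p = 0.184).

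The members with the highest mean signal in complexes I and III had no call either. Ndufa13, an accessory subunit of complex I also studied as GRIM-19, had group means of 8.53 ± 0.22 and 8.39 ± 0.14 in wild type and 8.55 ± 0.33 and 8.23 ± 0.11 in knockout (SD, n = 4, untreated then treated). Uqcrq, a small subunit of complex III, had 9.15 ± 0.20, 8.94 ± 0.14, 9.17 ± 0.33 and 8.94 ± 0.16. Ndufa4, named for complex I and now placed in complex IV, had 7.15 ± 0.08, 7.18 ± 0.16, 7.07 ± 0.17 and 6.92 ± 0.13. No difference of these genes was called.

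Among complex I subunits, Ndufb10 and Ndufa6, both accessory subunits, had the lowest unadjusted p for dexamethasone in wild type and were picked after their values were seen. Ndufb10 stood at 8.04, 7.97, 7.91 and 8.27 untreated and 7.70, 7.60, 7.85 and 7.79 treated, with a difference of -0.31 (SE 0.129, limma adjusted p = 0.136). Ndufa6 stood at 5.76, 5.87, 5.76 and 5.84 untreated and 5.56, 5.44, 5.56 and 5.62 treated, with a difference of -0.26 (SE 0.103, adjusted p = 0.116). Treated and untreated arrays do not overlap for either gene, and neither passed the threshold over all genes. With array weights both were called lower, and under quantile normalization Ndufb10 was.

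The rest of the pathway around the enzymes was read from fixed lists. Counts of calls in them stand beside those over all genes given above, which were 5.19% higher and 6.82% lower for dexamethasone in wild type and 14.1% higher and 8.24% lower for knockout against wild type under dexamethasone. Complex II, the link to the citric acid cycle (Sdha, Sdhb, Sdhc and Sdhd), had 0 of 4 genes called in each of the 5 comparisons, and 0 at an unadjusted limma p under 0.05. These 4 genes were measured with a wide error, the SE of a difference between groups running from 0.166 (Sdhc) to 0.474 (Sdha). All 4 stood lowest of the 16 arrays on untreated knockout replicate 1, Sdha at 1.57 against 4.16 to 4.40 on the other 3 arrays of the group and Sdhd at 4.36 against 5.80 to 6.06. Without that array the median over the 4 went from 0.22 to -0.22 for dexamethasone in knockout and from -0.30 to 0.07 for the untreated genotypes, with 0 called and 0 at an unadjusted p under 0.05 in each comparison. Complex I assembly factors had 0 of 5 called, assembly factors of complexes III and IV and ATP synthase 0 of 13, and cytochrome c with other subunits outside the naming rule 0 of 8, in all comparisons. At an unadjusted limma p under 0.05, at most 1, 2 and 2 genes of these lists passed in any comparison.

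In the citric acid cycle list, 2 of 17 genes were called higher under dexamethasone in wild type and 0 in knockout, where 0 also had an unadjusted limma p under 0.05. Idh3a, the catalytic subunit of NAD-dependent isocitrate dehydrogenase, stood at 2.21, 2.13, 1.98 and 2.35 untreated and 3.12, 3.06, 2.90 and 3.17 treated in wild type, with no overlap (difference 0.89, SE 0.171, limma adjusted p = 0.00419). Pcx, pyruvate carboxylase, which feeds gluconeogenesis, rose by 0.52 (adjusted p = 0.0247). Under dexamethasone, 4 of the 17 were called lower in knockout, led by Idh3a at -1.10 (adjusted p = 0.000549) and Pcx at -0.81 (0.00115), where limma called 8.24% of all genes lower. The interaction called 0 of the 17, with 3 lower at an unadjusted p under 0.05, so a difference in response between the genotypes was not called for any gene of the list.

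Among 15 tested regulators of mitochondrial transcription and biogenesis, Tfb1m was called higher (0.57, limma adjusted p = 0.0201) and Polg2, the accessory subunit of the mitochondrial DNA polymerase, lower (-0.92, adjusted p = 0.0453) under dexamethasone in wild type. Under dexamethasone, 2 of 15 were called lower in knockout. Ppargc1a, the coactivator PGC-1alpha, stood at 1.33, 0.67, 1.19 and 1.59 in wild type and at -0.76, -0.48, -0.40 and 0.88 in knockout. The groups overlap through knockout replicate 4, and the difference was -1.38 (SE 0.310, adjusted p = 0.00595). Nrf1, whose product binds the NRF1 core shown above, differed by -0.54 (SE 0.185, adjusted p = 0.047). The 67 general subunits had a median of -0.06 in that comparison, against 0.09 over all genes, and 0 were called. Of them 73.1% were negative, against 41.9% of all genes, and these figures depended on the scaling, as given above. Any link between the subunits and these regulators was not tested.

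Other mitochondrial lists held a few calls. Of 11 carriers and pores, Slc25a10, the dicarboxylate carrier, was called lower under dexamethasone in wild type (-0.73, limma adjusted p = 0.0236), and Slc25a10 and Ucp2 were called higher in knockout under dexamethasone (1.27 and 0.84). Of 75 mitochondrial ribosomal proteins, 2 were called lower under dexamethasone in wild type, Mrpl49 and Mrpl14, and 5 higher and 1 lower in knockout under dexamethasone. These shares are below those of all genes, of which 6.82% were called lower in the first comparison and 14.1% higher and 8.24% lower in the second. Of 85 genes named Rpl or Rps, the called ones, 2 lower under dexamethasone in wild type and 3 higher in knockout under dexamethasone, were Rps6ka kinases that share the name stem of ribosomal proteins.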

How the data were processed

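The deposited scanner files hold each spot's processed signal as an intensity, background-subtracted and detrended by the authors. The submitters' processing notes name Agilent Feature Extraction 9.5. Raw mean and background signals are intensity values too, and the deposited flags (background, saturation, outliers) have the unit other, per the file headers. A deposited table of the series holds the same intensity (largest difference 0). No scaling between arrays had been applied.

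Control spots (1639 of 45018) were dropped, 2121 flagged outliers (0.306%) became missing values, and repeated spots were averaged per probe. The log2 of the deposited signal was then taken relative to each array's 75th percentile. The brightest probe on average stood for its gene name. The gene was tested where some group had 3 or 4 arrays of that probe well above background. From 57.3% to 67.9% of an array's spots passed that flag, and precision is limited by how many arrays there are. Of the members, 22 have more than 1 probe, 0 were saturated, and Ndufs7 lacks 1 array. Limma 3.58.1 (R 4.3.3) fitted 4 group means to 16 arrays (12 residual degrees of freedom). All tests were two-sided and adjusted over 18611 genes. The fit was checked on simulated data for dexamethasone in wild type only, with independent noise and no shifts of whole arrays.

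Replicate numbers, which are also slide positions, were not taken to pair the samples. Of 24 same-numbered pairs between groups, 10 had residual correlations over 0.1 (median 0.0754, range -0.188 to 0.348). Pairs with different numbers were not set beside them, so these values cannot decide whether the numbers pair the samples. Groups followed the source names. Values are given for up to 4 called members per complex and comparison, the member with the highest mean of each complex, isoform sets and up to 3 called genes per list and comparison, and others are marked as chosen after seeing them. The members, lists and comparisons were chosen with earlier results of these data known. Alternatives were normexp (offset 50), quantile and cyclic loess normalization, a percentile over bright probes, no and stricter filters, outlying spots kept, saturated spots missing, other probes, a trended robust variance, array weights, a replicate block, the deposited table, fits of only the groups compared, and leaving out arrays. Promoters came from RefSeq's GRCm38.p6 table, and no coordinate was moved between builds. Some values for single genes are not reported here. Figures used matplotlib 3.10.9.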

Additional observations from a re-analysis of the deposited data

Results flagged for a closer look

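For the 18 members named by rule, the highest or lowest array of a group stood apart from the other 3 by Dixon's criterion in 7 of 72 groups of 4 arrays, where chance flags about 1 in 20. For the array medians of the 67 general subunits, in all and by enzyme, this was so in 0 of 20. On untreated wild-type replicate 4, Atp5g1 was at 6.56 (others 6.31 to 6.34), Cox4i1 at 8.76 (8.32 to 8.37) and Cox4nb at 2.05 (1.53 to 1.59). On untreated knockout replicate 1, Cox7a2l was at 2.67 (others 3.41 to 3.55) and Uqcrq at 9.66 (8.93 to 9.05). Cox8b was at -4.29 on untreated wild-type replicate 1 (others -4.74 to -4.67) and at -5.14 on treated knockout replicate 4 (-3.68 to -3.39). These first 5 values lie on the arrays with the lowest 75th percentiles, and the part of signal strength in them was not tested.

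The dexamethasone response differed between genotypes for Cox4nb, with an interaction of -1.37, and for Cox6b2, with an interaction of -1.68, both past the limma threshold over all genes.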

How the results depend on the processing

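Alternatives reversed no call. Over 90 results for single genes and 2880 values, 2684 kept direction and side of the threshold, 35 lost a call, 9 gained one, and 152 differences that had not been called changed sign. Part of this agreement was fixed in advance. The deposited table holds the same signals, and a gene with a single probe keeps it in the second-probe setting. Settings that change only the variance, or leave out an array of a group not compared, leave the difference itself unchanged. The 2684 is therefore no measure of robustness. The count of members called for dexamethasone in wild type, 2 in the main setting, was 1 under normexp and with the second brightest probe and 4 with array weights. In knockout, 1 became 0 under normexp and with only the groups compared, 2 under quantile or cyclic loess normalization, a stricter filter, outlying spots kept or a trended robust variance (Cox7c added), and 3 with array weights. For the interaction, 2 became 1 under normexp and with the second brightest probe. For knockout against wild type untreated, 1 became 0 under normexp, no filter, the second brightest probe, a trended robust variance, only the groups compared and without both dim arrays, and 2 with array weights. Under dexamethasone, 4 became 2 under normexp, 3 with no filter, 5 with the second brightest probe (Ndufb8 added), only the groups compared or without both dim arrays (Cox4i2 added), and 6 under quantile normalization (Atp5g2 and Ndufb10 added) and with array weights (Cox4i2 and Ndufa6 added). Under normexp the members' median moved from -0.058 to -0.174.

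Leaving out 1 array gave 1 to 2, 1 to 2, 2 to 2, 0 to 1 and 3 to 5 called members when taken in the order of dexamethasone (wild type, then knockout), interaction, and genotype (untreated, then treated). The medians ranged from -0.119 to -0.010, -0.236 to -0.127, -0.144 to -0.061, 0.034 to 0.127 and -0.106 to -0.003. The ends nearest 0 for dexamethasone in wild type and for the treated genotype comparison were those without untreated wild-type replicate 4 and treated knockout replicate 4. The first of these medians was 0.006 under cyclic loess and the last was 0.044 under quantile normalization. With the replicate block, a pairing that the correlations could not decide, the counts were 2, 1, 2, 1 and 4. In the untreated genotype comparison the call then passed from Cox6b2 (limma adjusted p = 0.0633) to Cox4i2 (0.0491). The slide cannot be told apart from the group. Dim isoforms such as Cox4i2 and Cox8b are limited by signal over background.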
